A study of Rattus norvegicus with 12 samples.

Results

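The enzymes of purine salvage and xanthine oxidation were described here as 10 genes, Aprt, Hprt1, Adk, Ada, Pnp, Gda, Xdh, Uox, Entpd1 and Nt5e, matched in the tables by symbol. The matching used no measured value, although the set was proposed with earlier results of these data known. Each symbol matched 1 entry in each of 2 deposited expression tables, that is 10 of 22132 entries in the table of the control and adenine samples and 10 of 32623 in the table of the sham and UUO samples. Kidney mRNA was measured by RNA-seq in 2 rat models of renal fibrosis, with 3 samples in each of 4 groups. All rats were male, wild-type Sprague-Dawley (SD) animals that were 8 weeks old when bought. For 3 weeks the adenine group was gavaged with adenine, 220 mg/kg daily, and the control group with saline. The UUO group had the left ureter tied (unilateral ureteral obstruction) and was sampled after 2 weeks, and the sham group had the operation without the ligation. Which kidney of the operated rats was sequenced is not given in the sources used here.

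Purines are built either from small precursors or by salvage, in which a phosphoribosyltransferase joins a free base to a ribose phosphate. The base adenine is salvaged by APRT, and adenine that escapes salvage is oxidised by xanthine oxidoreductase, the product of Xdh, to the poorly soluble dihydroxyadenine that crystallises in renal tubules. The same oxidoreductase makes urate from hypoxanthine and xanthine, and rats, unlike humans, keep a working urate oxidase (Uox), an enzyme known mainly from liver. The adenine model therefore loads the kidney with a substrate of APRT and of xanthine oxidoreductase, while the UUO model does not.

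Gda and Xdh are shown first by sequence because they rose by the most in the adenine model, together with Adk, which fell in both models. The sequences are the 250 bases before the annotated start of each gene, taken from RefSeq on build GRCr8 and written 5′ to 3′ in the direction of transcription. That build is the one of the sequence table, since the build of the expression tables is not stated. Xdh lies on the plus strand at chr6:27282069-27282318, Adk on the minus strand at chr15:3295746-3295995 and Gda on the minus strand at chr1:228408902-228409151. Capitals mark matches, on either strand, to the CCAAT box (CCAAT), the GC box (GGGCGG) and the TATA box (TATAAA).
Xdh: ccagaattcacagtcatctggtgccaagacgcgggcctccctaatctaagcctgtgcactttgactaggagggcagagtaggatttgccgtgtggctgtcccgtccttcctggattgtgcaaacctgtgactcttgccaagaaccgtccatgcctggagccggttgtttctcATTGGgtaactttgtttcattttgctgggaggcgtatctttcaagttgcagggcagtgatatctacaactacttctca
Adk: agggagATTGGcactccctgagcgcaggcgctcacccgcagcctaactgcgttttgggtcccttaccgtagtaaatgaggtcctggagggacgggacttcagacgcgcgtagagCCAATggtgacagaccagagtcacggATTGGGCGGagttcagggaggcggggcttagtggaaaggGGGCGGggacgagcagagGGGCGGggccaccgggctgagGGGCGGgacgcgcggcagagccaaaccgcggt
Gda: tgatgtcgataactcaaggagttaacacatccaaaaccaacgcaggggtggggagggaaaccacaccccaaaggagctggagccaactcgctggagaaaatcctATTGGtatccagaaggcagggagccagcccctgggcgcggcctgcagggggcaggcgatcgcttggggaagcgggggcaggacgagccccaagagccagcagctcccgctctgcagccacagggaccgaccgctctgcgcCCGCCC

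The 3 promoters differed in what they held. The Xdh stretch had 1 CCAAT match, which began 78 bases before the start, no GC box and no TATA box, at a GC content of 50.8%. The Adk stretch had 4 GC boxes and 3 CCAAT matches at a GC content of 66.0%, and the CCAAT match nearest the start overlapped a GC box. The Gda stretch had 1 CCAAT match 146 bases before the start and 1 GC box in its last 6 bases, at 64.0% GC. All 10 genes had an entry, of which 6 held a CCAAT match, 6 a GC box and 2 (Aprt and Pnp) a TATA box. Among all 33465 promoter stretches of the same length, 34.0% held a CCAAT match, 30.5% a GC box and 12.9% a TATA box. A match is a run of letters and does not show that a factor binds there.

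Expression was given as FPKM, fragments per kilobase of transcript scaled to the mapped fragments of a library, which corrects for length, so that levels of different genes can be set side by side within a table. Pnp, which splits inosine and guanosine into base and ribose phosphate, had the highest mean of the 10 genes in all 4 groups. In the control group its mean was 106 ± 7.24 FPKM (SD, n = 3), followed by Aprt at 88.5 ± 8.47 and Adk at 77.2 ± 1.21, and the ranges of these 3 genes did not overlap. Nt5e, Hprt1, Xdh and Ada came next at means between 18.6 and 7.47 FPKM, and each of them overlapped its neighbour in this order. Entpd1 and Gda were lower still and overlapped each other, and Uox was listed at 0. In the adenine group Xdh ranked below Pnp and Aprt only, at 73.7 ± 2.88 FPKM, above Adk at 38.3 ± 10.8, with no overlap between them. Adk, Hprt1, Ada, Gda and Nt5e then followed with overlapping neighbours, above Entpd1 and Uox. The sham group began with Pnp and Adk, whose ranges overlapped, then Aprt, then Nt5e, Xdh and Hprt1 with overlapping neighbours, then Ada, and last Entpd1 and Gda, which overlapped, and Uox. In the UUO group the order was Pnp, Aprt, then Xdh, Adk and Hprt1 with overlapping neighbours, then Ada, then Gda, Nt5e and Entpd1 with overlapping neighbours, and Uox.

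**Figure D1:**
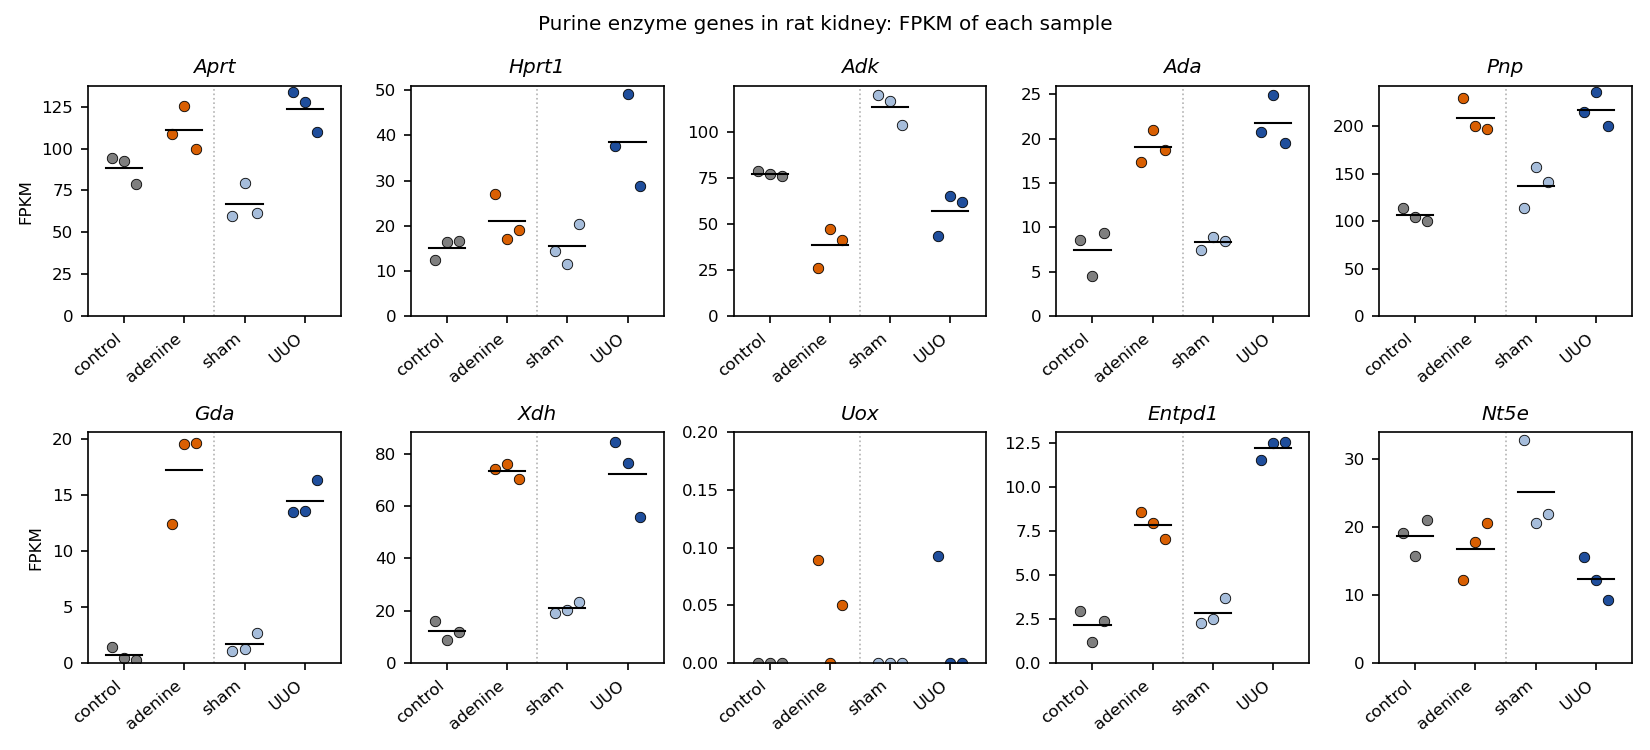
FPKM (vertical axis of each panel, starting at 0) of the 10 genes in each of the 12 samples, with points for single rats and bars for group means; the dotted line separates the 2 tables, whose levels are not compared, and no mean is drawn for Uox. Xdh lay between 8.76 and 16.0 FPKM in the control samples against between 70.5 and 76.1 in the adenine samples, and Adk was lower in every adenine and UUO sample than in its reference group.

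A gene was called a differentially expressed gene (DEG) when its limma adjusted p was under 0.05 and its log2 fold change was at least 2 in size, and changed when the adjusted p alone was under 0.05. Fold changes are on the scale of log2(FPKM + 0.1), which understates those of low genes. Genes with at least 0.5 FPKM in at least 3 of the 6 samples of a table were tested, which kept 15029 and 15043 entries and 9 of the 10 genes in each table, all but Uox. The adenine model had 2 DEGs among the 9 genes, Xdh and Gda, against 15.7% of all tested entries. Both were higher, against 10.7% of all entries higher and 5.03% lower. By adjusted p alone 5 rose (Xdh, Ada, Pnp, Entpd1 and Gda), against 39.6% of all entries, 1 fell (Adk), against 19.9%, and 3 did not pass (Aprt, Hprt1 and Nt5e), that is 6 of 9 changed against 59.4% of all entries. The UUO model also had 2 DEGs, Entpd1 and Gda, against 17.4%. Both were higher, against 13.2% of all entries higher and 4.21% lower. There 7 rose, against 56.1%, and 2 fell (Adk and Nt5e), against 14.4%, that is 9 of 9 changed against 70.5%. With so large a background, these counts set the genes little apart from the rest of the table. Samples of the 2 groups did not overlap for 8 of the 9 genes in the adenine model, against 68.0% of all entries, and for 9 of 9 in the UUO model, against 75.7%.

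Over all tested entries the log2 fold changes had a median of 0.30 for the adenine and 0.62 for the UUO model. For the 9 genes it was 0.98 and 1.31. When the samples were rescaled by medians of ratios, the medians over all entries moved to 0.014 and 0.030 and those of the 9 genes to 0.68 and 0.71. The DEGs over all entries then divided into 1311 higher and 957 lower in the adenine model, in place of 1604 and 756, and into 1248 and 955 in the UUO model, in place of 1980 and 633. Of the 9 genes, 5 rose and 1 fell in the adenine model after the rescaling, the same counts as before, while in the UUO model 4 rose and 2 fell in place of 7 and 2. On that scale 6 of 9 genes were thus changed in each model, against 57.4% of all entries with adenine and 56.0% with UUO. Values relative to this shift are given below as rescaled. With 3 samples against 3 the exact permutation test of a single gene cannot give a p under 0.1, and every gene whose groups did not overlap had that value.

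**Figure D2:**
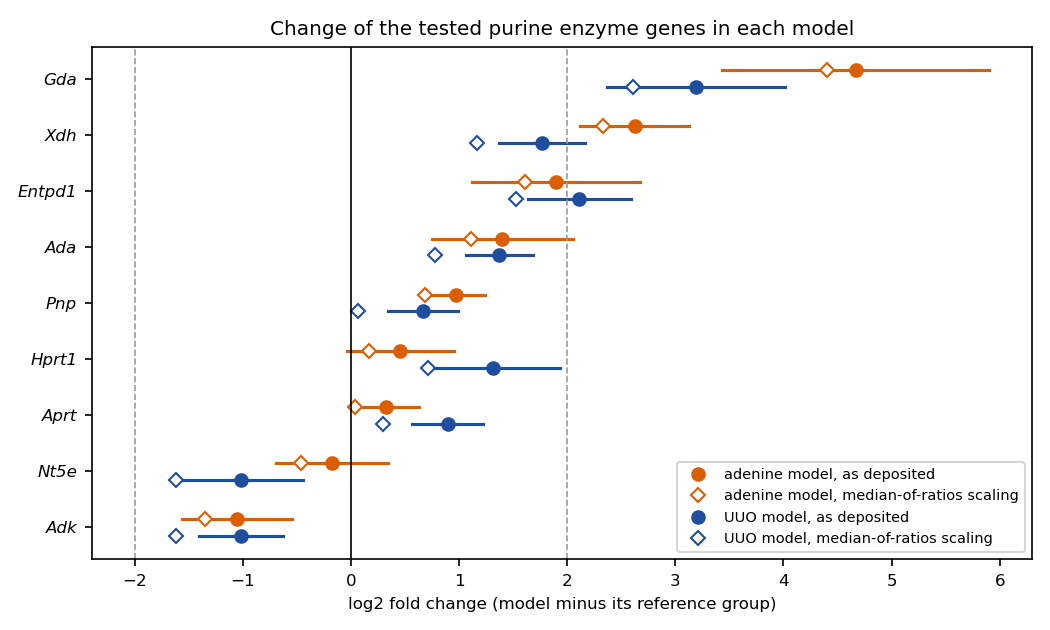
Log2 fold change (horizontal axis) of the 9 tested genes in the adenine model (orange) and the UUO model (blue); filled circles with 95% intervals are the values as deposited, open diamonds the rescaled values, and dashed lines stand at 2 and -2. Gda lay farthest to the right in both models, and Adk lay left of 0 in both on either scale.

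The phosphoribosyltransferases come first, since Aprt salvages adenine itself. Aprt measured 94.1, 92.5 and 78.7 FPKM in the control samples against 108, 126 and 99.8 in the adenine samples. All adenine samples were higher than all control samples, but the difference was small, with a log2 fold change of 0.33 ± 0.13 (SE) and an adjusted p of 0.062, and rescaled it was 0.035. In the sham samples Aprt measured 59.6, 79.5 and 61.4 FPKM and in the UUO samples 134, 128 and 110. The UUO samples were all higher, with a log2 fold change of 0.90 ± 0.14 and an adjusted p of 0.0011. Rescaled, that change was 0.29 and no longer passed the test (adjusted p = 0.158).

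Hprt1, which salvages hypoxanthine and guanine, stood well below Aprt in every sample. It measured 12.4, 16.4 and 16.6 FPKM in the control samples against 27.1, 17.1 and 19.0 in the adenine samples. The groups were apart by a narrow margin, and only adenine replicate 1 was far above the control samples. The log2 fold change of 0.46 ± 0.21 did not pass the test (adjusted p = 0.096). The sham samples of Hprt1 measured 14.4, 11.6 and 20.5 FPKM and the UUO samples 37.6, 49.0 and 28.8. It rose by a log2 fold change of 1.31 ± 0.26 with an adjusted p of 0.0037, and rescaled by 0.71, which missed the threshold (adjusted p = 0.056). The ratio of Aprt to Hprt1 within a sample does not depend on how samples are scaled. It was 7.58, 5.66 and 4.75 in the control samples against 4.002, 7.35 and 5.26 in the adenine samples, and 4.13, 6.84 and 3.00 in the sham samples against 3.56, 2.61 and 3.82 in the UUO samples. The groups overlapped in both models (log2 changes of -0.13 and -0.42, exact permutation p = 0.7 and 0.4, two-sided).

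Adenosine is disposed of by a pair of enzymes. Adk phosphorylates it back to AMP, and Ada deaminates it to inosine. Adk measured 78.6, 77.0 and 76.2 FPKM in the control samples against 26.3, 47.3 and 41.5 in the adenine samples. Every adenine sample was lower, with adenine replicate 1 the lowest, and Adk fell by 1.05 ± 0.21 on the log2 scale (adjusted p = 0.0054). The sham samples measured 120, 116 and 104 FPKM for Adk and the UUO samples 43.4, 65.1 and 62.0. It fell by 1.02 ± 0.16 (adjusted p = 0.0014), and the rescaled changes were -1.34 and -1.62.

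Ada went the other way. It measured 8.55, 4.55 and 9.33 FPKM in the control samples against 17.4, 21.0 and 18.7 in the adenine samples, with no overlap although control replicate 2 was low. The log2 fold change was 1.40 ± 0.27 (adjusted p = 0.0045), and rescaled 1.11. The obstruction gave the same direction, with 7.48, 8.96 and 8.51 FPKM in the sham samples against 20.8, 24.9 and 19.5 in the UUO samples. The log2 fold change was 1.37 ± 0.13 (adjusted p = 0.00014), and rescaled 0.77, which still passed the test (adjusted p = 0.0037). The ratio of Ada to Adk within a sample was 0.109, 0.0591 and 0.122 in the control samples against 0.663, 0.444 and 0.451 in the adenine samples. It was 0.0623, 0.0769 and 0.0820 in the sham samples and 0.478, 0.383 and 0.315 in the UUO samples. The ratio thus rose in every treated sample, by 2.47 and 2.40 on the log2 scale, at the smallest exact permutation p of 0.1 in each model, and Adk remained the higher of the pair in all 12 samples.

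**Figure D3:**
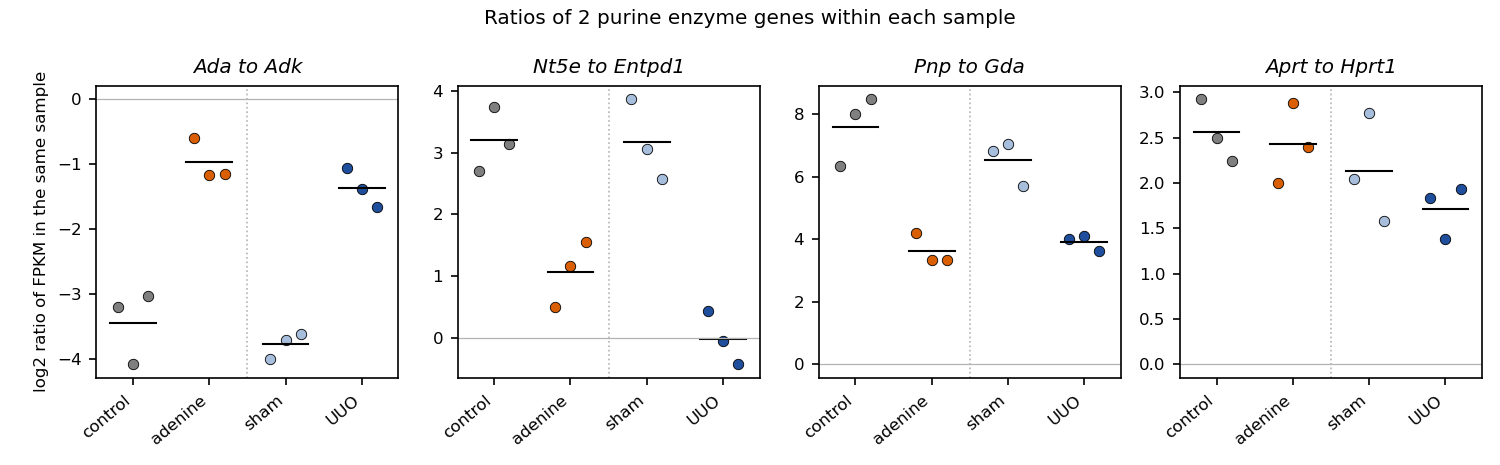
Log2 ratio of the FPKM of 2 genes in the same sample (vertical axis), for 4 pairs of genes; points are single rats, bars are means of the log2 ratios, and the dotted line separates the tables. The ratio of Ada to Adk was higher and those of Nt5e to Entpd1 and of Pnp to Gda were lower in all adenine and UUO samples than in their reference groups, while the ratio of Aprt to Hprt1 overlapped.

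Pnp and Gda act on the step that yields the bases xanthine and hypoxanthine, Pnp by releasing bases from nucleosides and Gda by deaminating guanine to xanthine. Pnp measured 114, 104 and 99.6 FPKM in the control samples against 230, 200 and 196 in the adenine samples. It was higher in every adenine sample and rose by a log2 fold change of 0.98 ± 0.11 (adjusted p = 0.00047), rescaled 0.68. In the sham samples it measured 114, 157 and 141 FPKM and in the UUO samples 214, 235 and 200. The groups did not overlap and the log2 fold change was 0.67 ± 0.14 (adjusted p = 0.0040). Rescaled it was 0.065 with an adjusted p of 0.733, and the deposited change of Pnp was thus close to that of the median entry in this model.

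Gda had the largest fold change of the 9 genes in both models. In the control samples it measured 1.42, 0.411 and 0.280 FPKM, and in the adenine samples 12.4, 19.6 and 19.6. The lowest adenine sample was far above the highest control sample, with a log2 fold change of 4.67 ± 0.52, or 25.4-fold (95% interval 10.8 to 59.8, adjusted p = 0.00042). Control replicate 1 was well above the other control samples, and without it the log2 fold change was 5.26, or 38.4-fold. The size also depended on the pseudocount, since the log2 fold change was 3.45 with 1 FPKM added in place of 0.1. For Gda the sham samples measured 1.01, 1.20 and 2.69 FPKM and the UUO samples 13.5, 13.5 and 16.4. The log2 fold change was 3.19 ± 0.35, or 9.13-fold (95% interval 5.16 to 16.2, adjusted p = 0.00024), and rescaled 2.61. The ratio of Pnp to Gda was 80.3, 254 and 355 in the control samples against 18.5, 10.2 and 10.01 in the adenine samples, and 113, 131 and 52.4 in the sham samples against 15.9, 17.4 and 12.2 in the UUO samples. It was lower in every treated sample, by 3.97 and 2.61 on the log2 scale (exact permutation p = 0.1 in each model).

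Xdh encodes the enzyme that oxidises hypoxanthine, xanthine and adenine. It measured 16.0, 8.76 and 11.9 FPKM in the control samples against 74.5, 76.1 and 70.5 in the adenine samples. The adenine samples lay close together and far above the control samples, with a log2 fold change of 2.62 ± 0.21, or 6.17-fold (95% interval 4.36 to 8.73, adjusted p = 0.00012), and rescaled 2.33. In the sham samples Xdh measured 19.2, 20.2 and 23.4 FPKM and in the UUO samples 84.6, 76.7 and 55.9. Xdh rose there as well, by 1.77 ± 0.17 on the log2 scale, or 3.41-fold (95% interval 2.58 to 4.49, adjusted p = 0.00014), which is under the fold threshold for a DEG, and rescaled by 1.17.

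Uox, which degrades urate, was at or near the lowest listed value throughout. The 3 control samples were listed at 0 and the adenine samples at 0.0892, 0 and 0.0499 FPKM. In the other table, whose lowest listed value is 0.0001, every sham sample stood at that value and the UUO samples at 0.0930, 0.0001 and 0.0001. It was not tested and no fold was formed. Of the 6 hepatocyte markers, Alb, the main liver protein, had a highest value of 1.49 FPKM in the adenine table and 0.149 in the other, and Ttr was at the lowest listed value in all 6 samples of the other table. Fgb, a fibrinogen chain in the same list, had means of 0.373 FPKM in the control and 17.1 in the adenine group, and of 0.567 in the sham and 9.53 in the UUO group. Apoa1, an apolipoprotein, was tested in the UUO model alone. It passed the filter there through its UUO samples alone, so that the filter fixed its direction in advance. Apoa1 rose by 1.61 on the log2 scale (limma adjusted p = 0.014) to a mean of 0.746 FPKM, and rescaled by 1.16 (adjusted p = 0.074). Serpina1 was higher without overlap in both models, at means of 0.0367 and 0.462 FPKM and of 0.0388 and 0.497 FPKM, and Tat stayed under 0.5 FPKM in all 12 samples. Tat was lower without overlap in the UUO model, at 0.414, 0.184 and 0.0247 FPKM in the sham samples and 0.0001 in every UUO sample. In the adenine model its groups overlapped. The part of these marker shifts in the Uox values was not tested.

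The last pair works outside the cell, where Entpd1 (CD39) turns ATP and ADP into AMP and Nt5e (CD73) turns AMP into adenosine. Entpd1 measured 2.93, 1.17 and 2.38 FPKM in the control samples against 8.55, 7.95 and 7.04 in the adenine samples. All adenine samples were higher, with a log2 fold change of 1.898 ± 0.32 (adjusted p = 0.0026), just under the fold threshold for a DEG, and rescaled 1.61. In the sham samples it measured 2.25, 2.47 and 3.68 FPKM and in the UUO samples 11.5, 12.5 and 12.5. The log2 fold change was 2.11 ± 0.20 (adjusted p = 0.00013), just over that threshold, and rescaled it was 1.52, which is under it. Without sham replicate 1 it was 1.98, so that the call of Entpd1 as a DEG, though not as changed, rested on that sample, on the scaling and on the pseudocount (1.81 with 1 FPKM added).

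Nt5e measured 19.1, 15.7 and 21.1 FPKM in the control samples against 12.1, 17.8 and 20.5 in the adenine samples. These groups overlapped, and the log2 fold change of -0.17 ± 0.22 did not pass the test (adjusted p = 0.52, 95% interval -0.69 to 0.35). In the sham samples it measured 32.7, 20.6 and 21.9 FPKM and in the UUO samples 15.5, 12.1 and 9.30. Every UUO sample was lower, and Nt5e fell by 1.02 ± 0.24 on the log2 scale (adjusted p = 0.0080), rescaled -1.62. The ratio of Nt5e to Entpd1 was 6.52, 13.4 and 8.84 in the control samples against 1.42, 2.24 and 2.92 in the adenine samples. It was 14.6, 8.37 and 5.95 in the sham samples and 1.35, 0.971 and 0.743 in the UUO samples, so that 2 of the 3 UUO samples had more Entpd1 than Nt5e. The log2 changes were -2.13 and -3.18 (exact permutation p = 0.1 in each model).

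The rats of a group did not vary alike in these genes. Control replicate 2 was the lowest control sample for 4 of the 9 tested genes, Xdh, Ada, Nt5e and Entpd1, and control replicate 3 for 4 others, Aprt, Adk, Pnp and Gda. Control replicate 1 was the highest control sample for 6, Aprt, Xdh, Adk, Pnp, Entpd1 and Gda. Adenine replicates 1 and 3 were each the lowest adenine sample for 4. UUO replicate 3 was the lowest UUO sample for 6, Aprt, Xdh, Hprt1, Ada, Pnp and Nt5e, and the highest for Entpd1 and Gda. Sham replicate 1 was the lowest for 6, Aprt, Xdh, Ada, Pnp, Entpd1 and Gda, and the highest for Adk and Nt5e.

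Whether the models differed was tested by the difference of their log2 fold changes, UUO minus adenine, over 13486 genes tested in both tables, of which 27.0% were called. Of the 9 genes 2 were called. Aprt rose by more in the UUO model (difference 0.57 ± 0.19, adjusted p = 0.039), and Xdh rose by more in the adenine model (difference -0.86 ± 0.27, adjusted p = 0.031). The difference for Xdh also held after the rescaling (-1.16, adjusted p = 0.011), and that for Aprt did not (0.26, adjusted p = 0.409). Both calls were close to the threshold, and leaving out single samples ended the call of Aprt in 8 of 12 cases and that of Xdh in 7 of 12. The differences of Hprt1 (0.85, adjusted p = 0.072), Nt5e (-0.85, adjusted p = 0.068) and Gda (-1.48, adjusted p = 0.092) were of similar or larger size and did not pass. For Ada the difference was -0.03 (95% interval -0.68 to 0.62), for Adk 0.04 (-0.54 to 0.62), for Entpd1 0.22 (-0.60 to 1.04) and for Pnp -0.31 (-0.68 to 0.07). These intervals leave room for differences of over 0.5 in either direction for Ada, Adk and Entpd1. The models also differ in their duration, tables and reference groups, which cannot be told apart from the cause of injury.

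The genes whose pattern over the 12 samples was most like that of Aprt and Xdh were found by the root-mean-square difference of log2 values, each centred on its reference group. For Aprt they were Ogg1 (0.097), Nle1 (0.098) and Map3k11 (0.108), against a median of 0.614 over 13485 genes. For Xdh they were Sulf2 (0.173), Scarb2 (0.192) and Rab3il1 (0.202), against a median of 1.39.

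Of the other purine genes, 61 symbols in 8 lists were looked up, 56 were listed in the tables and 51 were tested in each model. In the adenine model 20 rose, 12 fell and 19 did not pass, with 5 DEGs higher and 5 lower, against 39.6% and 19.9% of all entries by adjusted p and 10.7% and 5.03% as DEGs. Under obstruction 22 rose, 12 fell and 17 did not pass, with 7 DEGs higher and 4 lower, against 56.1% and 14.4% by adjusted p and 13.2% and 4.21% as DEGs. The medians were 0.14 and 0.28 on the log2 scale, below those of all entries, and after the rescaling 11 rose and 18 fell in the adenine model, and 12 rose and 22 fell in the UUO model. The rescaled shares of all entries were 29.1% higher and 28.4% lower, and 28.0% and 28.0%. The balance of higher and lower calls in these lists therefore turned with the scaling.

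De novo synthesis, from Prps1 to Atic, held no DEG among its 8 genes in either model, against 15.7% and 17.4% of all entries. By adjusted p 3 rose and 2 fell in the adenine model, against 39.6% and 19.9% of all entries. In the UUO model 5 rose and 2 fell, against 56.1% and 14.4%. After the rescaling 1 rose and 3 fell in each model, and in the UUO model Pfas was the gene still higher (0.32, adjusted p = 0.042), with Prps2, Ppat and Paics lower. In the list that leads from IMP to AMP and GMP, 1 of 7 genes was a DEG in the UUO model, against 17.4% of all entries. None was in the adenine model, against 15.7%. The DEG was Impdh1, which makes xanthosine monophosphate on the way to GMP, at 2.86, 2.71 and 2.84 FPKM in the sham samples and 21.2, 18.1 and 16.8 in the UUO samples, a log2 fold change of 2.69 ± 0.13 (adjusted p = 1.5e-05). In the adenine model Impdh1 rose by 1.20 ± 0.39 (adjusted p = 0.033), a call that was lost after the rescaling (adjusted p = 0.077) and in 5 of 6 fits that left out 1 sample, all but the one without control replicate 1 (adjusted p = 0.066 to 0.097). Among 8 AMP deaminases and intracellular nucleotidases, Nt5c1a was the 1 DEG, in the adenine model, where 15.7% of all entries were DEGs. It measured 0.192, 0 and 0.109 FPKM in the control samples against 1.20, 0.528 and 0.801 in the adenine samples. Nt5c1a thus passed the filter through its adenine samples alone, so that the filter fixed its direction in advance. Its log2 fold change of 2.30 was 1.87 without control replicate 2 and 0.73 with a pseudocount of 1, both under the DEG threshold, and 3.70 with a pseudocount of 0.01.

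The DEGs of the extracellular hydrolysis list, unlike Entpd1, were all lower. They were 3 of 11 tested genes after adenine, against 5.03% of all entries, and 2 of 10 after obstruction, against 4.21%. Alpl, the tissue-nonspecific alkaline phosphatase that also makes adenosine from AMP, measured 99.0, 132 and 99.0 FPKM in the control samples against 5.37, 17.97 and 11.3 in the adenine samples, and 137, 126 and 139 in the sham samples against 7.19, 14.6 and 12.7 in the UUO samples. It fell by 3.39 ± 0.41 and 3.59 ± 0.25 on the log2 scale (adjusted p = 6.0e-04 and 4.6e-05). Entpd5, a diphosphohydrolase of the endoplasmic reticulum, fell by 2.34 and 2.72. Entpd8 was a DEG in the adenine model, where it fell by 3.03 from a control mean of 0.999 FPKM and by 0.94 with a pseudocount of 1. Entpd8 passed the filter there through its control samples alone, so that the filter fixed its direction in advance. In the UUO model Entpd8 was not tested.

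The adenosine receptors all rose where they were tested, 3 of 3 after adenine, against 39.6% of all entries, and 4 of 4 after obstruction, against 56.1%. Adora3 passed the filter there through its UUO samples alone, so that the filter fixed its direction in advance. In the adenine model Adora3 stayed under the filter and was not tested. The rescaled changes were all above 0, the lowest being 1.09 for Adora2a after adenine. Adora1 measured 0.631, 1.15 and 0.443 FPKM in the control samples against 6.41, 5.87 and 5.96 in the adenine samples, a log2 fold change of 2.96 ± 0.31. After obstruction it rose from a mean of 0.930 to 6.63 FPKM, by 2.72 ± 0.20. Adora2a rose by 1.37 and 2.48, the second of which was 1.897 after the rescaling and so under the DEG threshold, and with a pseudocount of 1 the UUO change of Adora1 was 1.99. Adora3 was at the lowest listed value throughout the sham group and reached 2.28, 1.16 and 1.79 FPKM under obstruction. Adora2b, named here after its values were seen because it completes the list, rose by 2.27 in the adenine model, where it was a DEG, and by 1.66 in the UUO model.

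Among 6 tested nucleoside and nucleobase carriers, Slc28a2, Slc43a3 and Slc28a1 were DEGs in both models on the deposited scale. Slc28a2, the concentrative carrier of purine nucleosides, measured 2.52, 2.19 and 3.45 FPKM in the control samples against 65.5, 29.0 and 74.5 in the adenine samples, a log2 fold change of 4.24 ± 0.37 (adjusted p = 0.00017). After obstruction it rose from 2.16, 1.60 and 2.62 FPKM to 18.3, 21.4 and 11.1, by 2.91 ± 0.29 (adjusted p = 0.00017). Slc43a3, a purine nucleobase carrier, rose by 2.23 and 2.41, but by 1.94 and 1.82 after the rescaling, which is under the DEG threshold. Slc28a1, the carrier of pyrimidine nucleosides, fell by 2.25 and 3.94, the first of which was -1.65 with a pseudocount of 1 and -1.99 with FPKM rescaled to the same sum. In the UUO model Slc28a1 passed the filter through its sham samples alone, so that the filter fixed its direction there in advance.

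Xdh needs the molybdenum cofactor, and none of the 7 genes of that list was a DEG in the adenine model, against 15.7% of all entries. In the UUO model Aox1 alone just passed, against 17.4%. Aox1, an aldehyde oxidase of the same enzyme family as Xdh, rose there by 2.03 ± 0.38 on the log2 scale (adjusted p = 0.0030). The change was still called but under the DEG threshold after the rescaling (1.46), with a pseudocount of 1 (1.503), without sham replicate 2 (1.76) and without UUO replicate 3 (1.70). In the adenine model adenine replicate 1 stood apart at 11.7 FPKM, with 1.43 and 1.04 in the other samples of the group, and the log2 fold change of 0.57 had an adjusted p of 0.61. Urad, which acts after Uox in urate breakdown, measured 6.71, 1.25 and 6.55 FPKM in the control samples against 0.511, 1.25 and 0.596 in the adenine samples. It fell by 2.24 (adjusted p = 0.026) with groups that touched at 1.25, a call that was lost in 4 of 6 fits that left out 1 sample, those without control or adenine replicate 1 or 3 (adjusted p = 0.075 to 0.083). Without control replicate 2 the change was -3.02. In the UUO model it fell by 3.48.

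**Figure D4:**
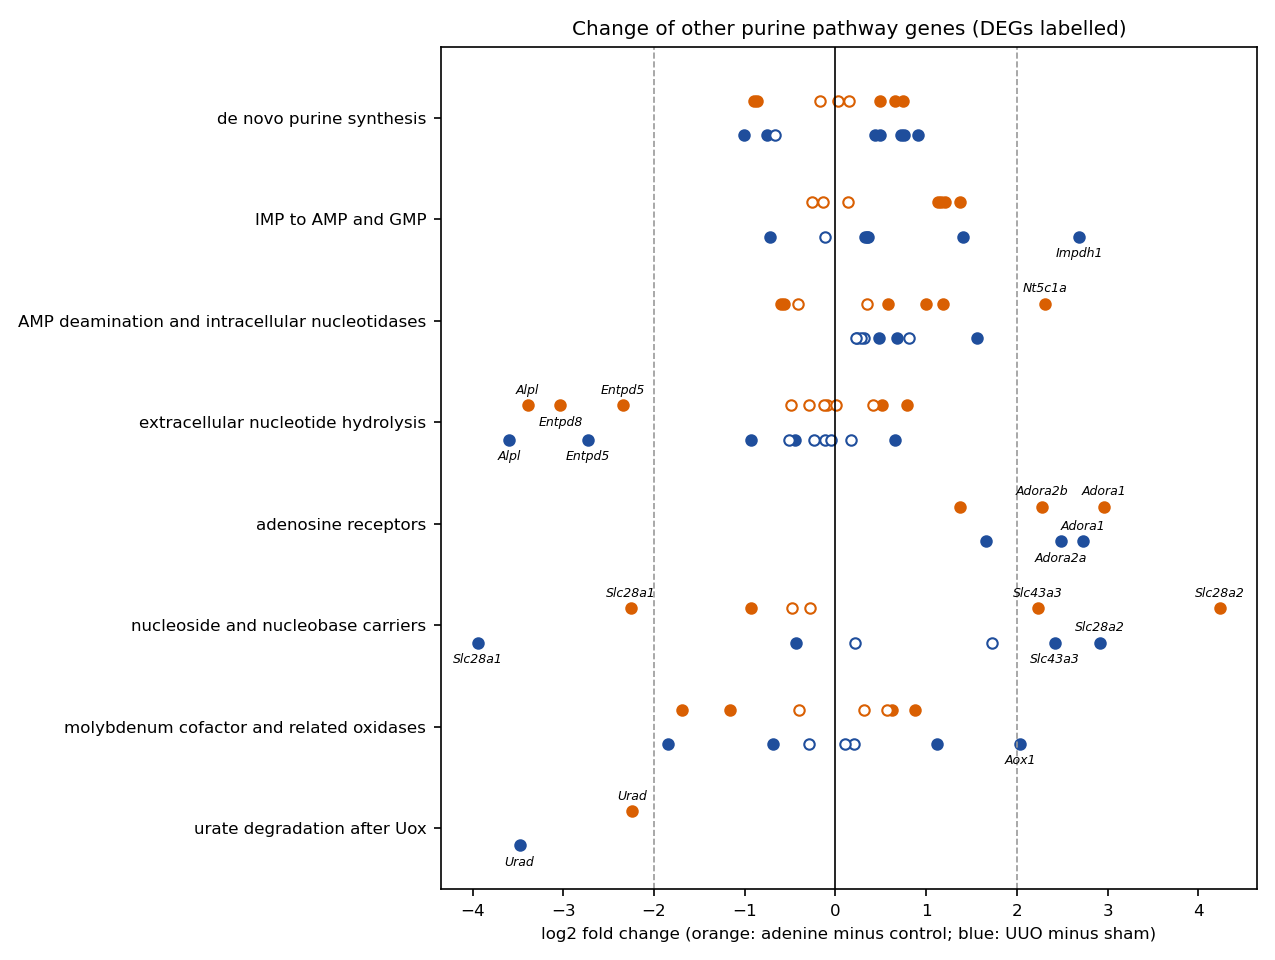
Log2 fold change (horizontal axis) of the tested genes of 8 purine pathway lists (vertical axis) in the adenine model (orange) and the UUO model (blue); filled points had a limma adjusted p under 0.05, open points did not, DEGs are labelled, and dashed lines stand at 2 and -2. The adenosine receptors all lay right of 0, Slc28a2 was the highest carrier in both models and Alpl the lowest hydrolase, and Adora3 in the UUO model is left out because its sham samples were at the lowest listed value.

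Markers of several cell types moved with the groups and stand beside all the values above. The summed FPKM of 8 proximal tubule markers was 1542 to 2327 in the control and 175 to 503 in the adenine samples, and 2183 to 2529 in the sham and 294 to 553 in the UUO samples, with 4 of 8 markers lower as DEGs in each model. Of 5 thick limb and distal tubule markers 1 and 5 were lower as DEGs, of 4 collecting duct markers 1 and 2, and of 4 podocyte markers 0 and 0. By adjusted p alone 1 podocyte marker fell in each model. Over all entries 5.03% and 4.21% were lower as DEGs, and 19.9% and 14.4% by adjusted p. The sum of 8 leukocyte markers, most of it Lyz2, went from between 163 and 236 to between 6461 and 13131 in the adenine model and from between 195 and 322 to between 1511 and 2167 in the UUO model. Of the tested markers 7 of 7 and 8 of 8 were higher as DEGs, against 10.7% and 13.2% of all entries. Itgam in both models and Cd79b in the UUO model passed the filter through the adenine or UUO samples alone. Cd79b was not tested in the adenine model. The sum of 6 fibroblast and smooth muscle markers went from between 75.1 and 91.6 to between 340 and 429, and from between 69.4 and 93.0 to between 744 and 1274. Of these markers 2 and 4 were higher as DEGs, against 10.7% and 13.2% of all entries. Myh11 did not pass in either model (log2 fold changes of 0.0033 and 1.40). The 5 listed endothelial markers summed to 73.8 to 81.6 in the control and 38.9 to 51.3 in the adenine samples, and to 77.5 to 102 in the sham and 135 to 152 in the UUO samples. These sums hide a split, since in the adenine model Cdh5 and Flt1 rose (0.84 and 1.08 on the log2 scale) while Emcn, the most abundant, and Tek fell (by 1.79 and 0.46). In the UUO model Cdh5 and Tek rose (2.48 and 0.85), and Kdr, Flt1 and Emcn did not pass. In whole kidney tissue, fewer cells of a type and less RNA per cell cannot be told apart, and the part of these shifts in the changes of the purine genes was not tested.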

How the data were processed

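Kidney RNA of 12 rats (4 groups of 3) was sequenced. The authors deposited FPKM values per gene in 2 tables that were normalized separately, so each was analysed alone and no level was compared across them. The submitters' processing notes name cutadapt 1.9, HISAT2 2.0.4, StringTie 1.3.4d, edgeR and DESeq2, and the genome build is not given in the sources used here. Read counts were not used here, low values did not fall on whole multiples of 1 read, and the depth behind each value is therefore unknown. No column was left unmapped. Entries were identified by symbol.

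Values were tested as log2(FPKM + 0.1) with limma 3.58.1 in R 4.3.3 (lmFit and eBayes with a trend, two-sided), with Benjamini-Hochberg adjustment over all tested entries of a table, in place of the count test of the methods. The difference between the models was divided by the root of the summed squared standard errors. Ratios were compared by exact permutation in scipy 1.17.1. The fits were tested on simulated data. Alternatives were a pseudocount of 1 or 0.01, no filter, a minimum of 1 FPKM, 2 rescalings, eBayes without the trend, a replicate block and leaving out each sample.

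The genes and lists were chosen with earlier results of these data known. The 10 genes were named, with at most 3 DEGs per pathway list by size and the 3 genes nearest in pattern to Aprt and Xdh. Same-numbered samples did not deviate together (correlations from -0.12 to 0.11), and the numbers were not treated as pairs. Each p-value measures the spread between 3 rats per group.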

Additional observations from a re-analysis of the deposited data

Results flagged for a closer look

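By the rule of naming at most 3 DEGs per list, 20 named genes could be tested in both models (9 enzymes and 11 other purine genes). Of these, 4 differed in log2 fold change by the test of the difference itself (UUO minus adenine), against 27.0% of all genes tested. The difference was 0.57 for Aprt and -0.86 for Xdh. Among the other named genes it was 1.48 for Impdh1 (adjusted p = 0.018), which rose by more in the UUO model, and -1.69 for Slc28a1 (adjusted p = 0.0064), which fell by more there. Listed genes outside that rule were called as well. Adssl1 (-1.89), Gmpr (-1.48), Ampd3 (-0.76) and Nt5c3a (1.05) were called before and after the rescaling. Ampd2, Adsl, Gmps, Adss, Slc29a3 and Mocs2 were called before it only. Paics, Entpd4, Enpp1, Mocs1 and Gphn were called after it only. So was Slc28a2 among the named carriers, at -1.33 before the rescaling (adjusted p = 0.051) and -1.63 after it (adjusted p = 0.031). As deposited, Adssl1 rose in the adenine model and fell in the UUO model (1.17 and -0.73), and Nt5c3a did the reverse (-0.57 and 0.48). After the rescaling by medians of ratios the difference of Impdh1 was 1.18 (adjusted p = 0.057) and that of Slc28a1 -1.91 (adjusted p = 0.0040). Over the alternatives in which Slc28a1 was tested its difference ranged from -2.03 to -0.66. In the 9 fits that left out 1 sample and still tested it, the range was -1.96 to -1.51. Its UUO samples were low, at 0.199, 0.407 and 0.176 FPKM, and it passed the filter of that model through its sham samples alone. The filter thus fixed the direction of its UUO change in advance. Without adenine replicate 3 that of Impdh1 was 1.39 (adjusted p = 0.057). No group held enough samples for a test of single outlying samples.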

How the results depend on the processing

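The directions of the 9 tested genes held under all alternatives in both models except that of Nt5e in the adenine model, which was 0.098 on the log2 scale with FPKM rescaled to the same sum and -0.33 to 0.046 when 1 sample was left out. In the UUO model, Aprt, Hprt1 and Pnp lost their calls after the rescaling by medians of ratios and Nt5e without the filter (adjusted p = 0.053), while Aprt and Hprt1 gained theirs in the adenine model after each sample was rescaled to an equal FPKM sum (adjusted p = 0.0048 and 0.016). The 2 DEGs of the UUO model became 1 with a pseudocount of 1 and 1 with medians of ratios, and 1 to 2 when 1 sample was left out (1 without sham replicate 1). The 2 DEGs of the adenine model became 3 without control replicate 1 or 3 and with FPKM rescaled to the same sum, where Entpd1 reached 2.16, and the 10 DEGs of its pathway lists became 4 with a pseudocount of 1.

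The difference between the models was the least stable result. Its 2 called genes became 0 without the filter, 1 with FPKM rescaled to the same sum, 0 with eBayes without the trend, and 0 to 3 when 1 sample was left out (0 without control replicate 2 or adenine replicate 3). The difference of Aprt lost its call without control replicates 1 and 2, adenine 1 and 3, sham 1 and 3 and UUO 1 and 2, with differences of 0.49 to 0.70 over all 12 samples left out in turn, and that of Xdh without control 2 and 3, any adenine sample, sham 3 and UUO 3, with -1.07 to -0.64. Hprt1, Nt5e and Gda gained a call in 4, 2 and 1 of these 12 fits, and Pnp (adjusted p = 0.041) and Nt5e (adjusted p = 0.026) with medians of ratios. The differences that did not pass changed sign, for Adk to -0.27 with medians of ratios and -0.00983 with the same sum, and for Entpd1 to -0.090 with medians of ratios. With 1 sample left out they ranged from -0.22 to 0.29 for Ada, -0.21 to 0.22 for Adk and -0.041 to 0.58 for Entpd1. The log2 change in the ratio of Aprt to Hprt1 in the adenine model ranged from -0.36 to 0.081, and that of Aox1 in the adenine model from -0.48 to 1.20. The cause of these changes was not tested. Unknown depth limits what the low values of Uox, Gda and Nt5c1a can show.

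A fit with the replicate number as a block left the counts of DEGs among the 9 genes at 2 in each model, although the numbers do not pair the rats. Under the block the difference of Nt5e gained a call (adjusted p = 0.028) and the change of Urad in the adenine model lost it (adjusted p = 0.060).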
